A study of Mus musculus with 2 samples.

Results

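The laminin chains and nidogens of basement membranes were described in the spinal cord of newborn mice. They are 10 genes of the 32285 in the files, chosen by symbol: the laminin alpha chain genes Lama1, Lama2, Lama4 and Lama5, the beta chain genes Lamb1 and Lamb2, the gamma chain genes Lamc1 and Lamc3, and the nidogen genes Nid1 and Nid2. Each symbol belonged to 1 gene identifier and all 10 were measured in both libraries. Single-cell RNA-seq had been run on whole spinal cords of mice of strain FVB at postnatal day 4, in 1 library labelled SMA and 1 labelled Con. SMA mice had the genotype (mSmn-/-, hSMN22tg/0), a severe model of spinal muscular atrophy with no intact mouse Smn gene, and Con mice the genotype (mSmn+/-, hSMN22tg/0), with 1 intact copy. Both groups therefore carried the human SMN2 transgene, and the Con mice were heterozygous and not wild type. Per the study's methods, 3 littermates were pooled in each library and the Con mice came out of the SMA litter, so animals cannot be told apart. Their sexes were not stated.

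Laminins are large glycoproteins built of an alpha, a beta and a gamma chain that join into a cross-shaped trimer inside the cell before secretion. Trimers bind integrins and dystroglycan on the cell surface through the alpha chain and polymerise into a sheet, and nidogens bridge the gamma chain to the collagen IV network and to the heparan sulphate proteoglycan perlecan. In the spinal cord such sheets surround blood vessels, lie under the astrocyte endfeet at the vessels and at the pial surface, and wrap the Schwann cells of the nerve roots.

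The library labelled SMA held 26921 barcodes and the library labelled Con 25419, of which 8163 barcodes were listed in both and were left out of SMA. In Con, 4930 of 4933 cells with at least 5000 UMIs had such a barcode, erythroid-like cells and 1 fibroblast-like cluster (cluster 15) aside. How the SMA library came to list these barcodes is not given in the sources used here, and its part in the SMA to Con ratios was not tested beyond keeping the barcodes in. Limits on genes and mitochondrial share came next. A cluster of high ribosomal-protein share, with 1338 Con and 0 SMA barcodes, was left out as well. This left 6787 SMA cells (median 6109 UMIs) and 8918 Con cells (median 6229 UMIs). A UMI marks 1 captured RNA molecule at its 3′ end, so levels of different chains were compared without dividing by transcript length. Levels are given as counts per 1000000 UMIs (CPM), the UMIs of a gene summed over a class and divided by all UMIs of that class in the library. Values in parentheses are 95% intervals, and those of levels, shares and ratios cover counting error only, since there was 1 library per group and no replicate. No difference between SMA and Con could be tested against a spread between animals. Smn1 had 48.1 CPM (46.2 to 50.2) in SMA and 43.8 CPM (42.2 to 45.5) in Con, and 3′ counts do not show whether a transcript comes from an intact allele, so the genotype labels could not be checked with it. Xist, the RNA of the inactive X chromosome, had 1.51 CPM in SMA and 528 CPM in Con, so the sex make-up of the pools and the genotype cannot be told apart.

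Cells fell into 31 clusters, which were given 14 class names from marker genes, with 488 SMA and 527 Con cells left unnamed. Of these classes, 11 held at least 50 cells in each library and were compared. Endothelial-like cells (323 SMA, 436 Con) and mural-like cells (91 SMA, 258 Con), that is, pericytes and vascular smooth muscle, each had 10 of their 10 markers detected. Schwann-like cells (92 SMA, 216 Con) had 9 of 10. Fibroblast-like cells (63 SMA, 601 Con) came in 2 clusters with 10 and 7 of 10 markers. Endothelial-, mural- and fibroblast-like cells are called vessel-wall classes here, although fibroblasts of the meninges would be among them. Neuron-like cells (44 SMA, 26 Con) were too few to compare, so nothing is said of the motor neurons that the disease affects.

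The laminins and nidogens had their highest levels mainly in the vessel-wall and Schwann-like classes. In each library 7 of the 10 had their highest level in a vessel-wall class, beside 21.6% of 14057 tested genes in SMA and 22.1% of 14266 in Con. Among these, Lama1, Lamb2, Lamc3 and Nid2 in SMA and Lama1, Nid1 and Nid2 in Con were highest in fibroblast-like cells, which may include fibroblasts of the meninges. The rest were highest in mural- or endothelial-like cells. The vessel-wall and Schwann-like classes made up 9.03% of named cells in SMA and 18.01% in Con. They held 32.2% to 96.7% of a member's UMIs in named SMA cells and 46.4% to 97.5% in named Con cells. Lamb1, Lama2 and Lamc3 lay at the high end and Lamb2, Lama5 and, in SMA, Lama1 at the low end. In SMA these classes held 32.2% of Lamb2, 34.8% of Lama5 and 37.7% of Lama1 UMIs, so most lay outside them. In Con that was so for Lamb2, at 46.4%. Erythroid-like cells, which should lack these genes, had at most 2.51 CPM of any member in either library, and this level is taken as the background of free RNA. Of the erythroid-like clusters, 1 of 8 SMA and 38 Con cells also had 9 of 10 astrocyte markers detected, and without it the highest level was 1.80 CPM, of Lamc1 in SMA. Other classes may hold more free RNA. Rgs5, a pericyte gene, had 30.1 CPM in SMA and 53.1 CPM in Con in oligodendrocyte-like cells, against 1.26 and 2.31 CPM in erythroid-like cells.

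**Figure D1:**
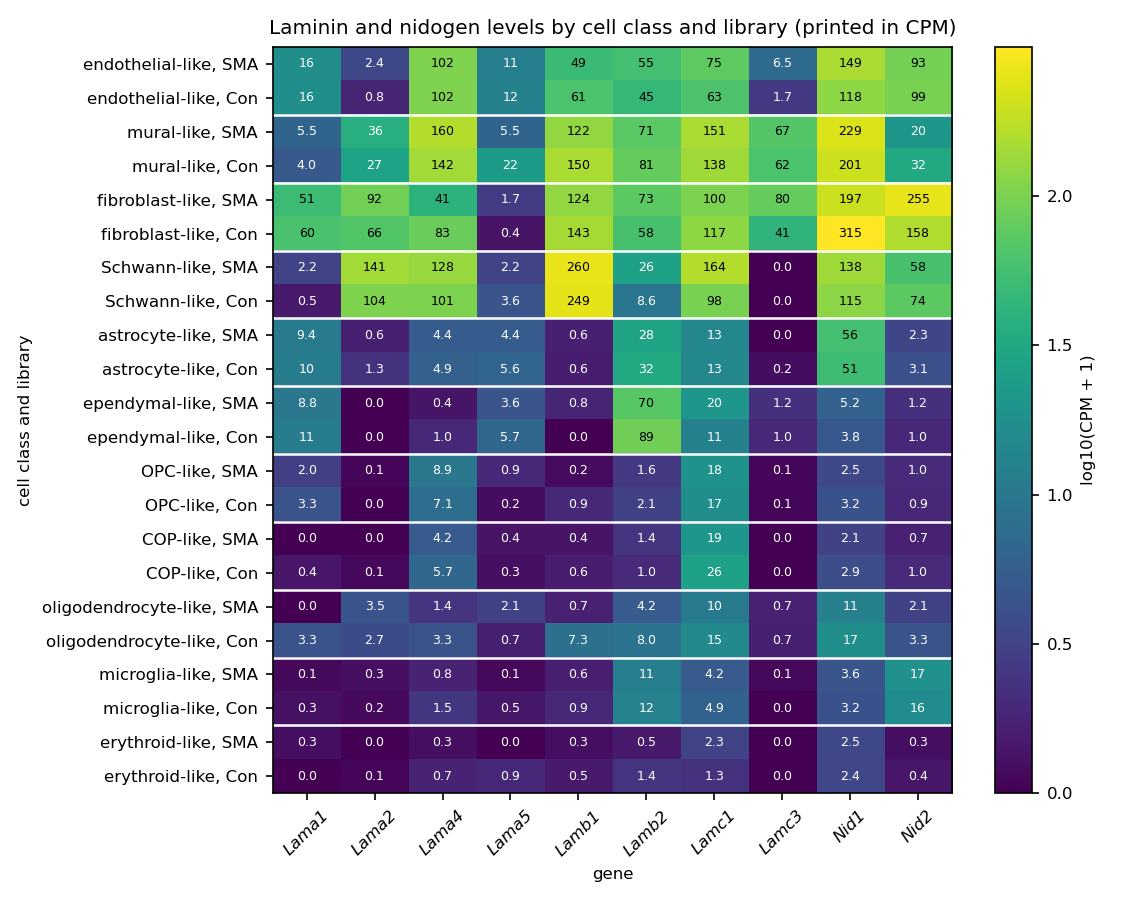
Level of each laminin and nidogen gene (columns) in each compared cell class and library (rows), with the CPM printed in each cell and the colour giving log10(CPM + 1). High levels gather in the endothelial-, mural-, fibroblast- and Schwann-like rows, with Lamb2 in ependymal-like cells at 69.6 and 89.1 CPM and Nid1 in astrocyte-like cells at 56.2 and 51.3 CPM as high values outside them.

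The alpha chains decide which receptors a laminin binds. Lama1 (ENSMUSG00000032796, chr17:67697259-67822647, plus strand, GRCm38) encodes the chain of the early embryonic and pial laminin. Its level in fibroblast-like cells was 50.9 CPM (34.4 to 72.7) in SMA and 59.8 CPM (51.1 to 69.6) in Con. Endothelial-like cells came next with 16.3 CPM (11.7 to 22.2) in SMA and 16.4 CPM (12.5 to 21.2) in Con. Fibroblast-like cells thus stood above endothelial-like cells in both libraries with intervals that did not overlap, and the 2 libraries overlapped in each class. Their fibroblast-like cells fall into different clusters, and in the cluster that both hold (cluster 22) Lama1 had 52.2 CPM (35.2 to 74.5) in SMA and 116 CPM (98.8 to 135) in Con, which did not overlap. Astrocyte-like cells carried 9.38 CPM (7.35 to 11.8) in SMA and 10.2 CPM (8.30 to 12.4) in Con, a low level that lay above the erythroid-like background of 0.251 and 0 CPM. Because these cells were many, they held 36.7% of the Lama1 UMIs in named SMA cells and 26.02% in named Con cells.

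Lama2 (ENSMUSG00000019899, chr10:26980036-27619758, minus strand) encodes the alpha chain of muscle and peripheral nerve laminin, whose loss causes a congenital muscular dystrophy. Schwann-like cells had 141 CPM (118 to 168) in SMA and 104 CPM (90.004 to 119) in Con. Fibroblast-like cells had 91.6 CPM (68.8 to 119.6) in SMA and 65.6 CPM (56.4 to 75.8) in Con, and mural-like cells 36.4 CPM (22.2 to 56.2) in SMA and 27.1 CPM (19.99 to 35.9) in Con. The order Schwann-like, fibroblast-like, mural-like was the same in both libraries, with the first and second overlapping in SMA and apart in Con. Endothelial-like cells held 6 Lama2 UMIs in SMA and 3 in Con (2.45 and 0.834 CPM), and none was found in ependymal-like cells (385 SMA, 154 Con), which allows up to 1.19 and 2.87 CPM at 3 counts.

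Lama4 (ENSMUSG00000019846, chr10:38965515-39110188, plus strand), the main alpha chain of endothelial and other mesenchymal basement membranes, had the most UMIs of the alpha chains, with 632 in named SMA cells and 1234 in named Con cells. Mural-like cells had 160.1 CPM (128 to 197) in SMA and 142 CPM (125 to 161) in Con. Endothelial-like cells had 102 CPM (89.4 to 115) in SMA and 102 CPM (91.8 to 113) in Con, and Schwann-like cells 128 CPM (105 to 153) in SMA and 101 CPM (87.2 to 116) in Con. These 3 classes were within a narrow range, mural-like cells being above endothelial-like cells without overlap in both libraries. Precursors of oligodendrocytes (OPC-like cells) had 8.89 CPM (7.23 to 10.8) in SMA and 7.09 CPM (5.53 to 8.96) in Con, above the erythroid-like 0.251 and 0.736 CPM. Lama5 (ENSMUSG00000015647, chr2:180176373-180225859, minus strand), which forms the laminin of mature endothelium and of epithelia, was highest in mural-like cells in Con and in endothelial-like cells in SMA. Mural-like cells had 5.46 CPM (1.13 to 15.9) in SMA and 22.02 CPM (15.7 to 30.1) in Con, on 3 and 39 UMIs. Endothelial-like cells had 10.6 CPM (6.93 to 15.6) in SMA and 11.7 CPM (8.41 to 15.8) in Con, close together in the 2 libraries. Astrocyte-like cells had 4.37 CPM (3.03 to 6.11) in SMA and 5.59 CPM (4.22 to 7.26) in Con.

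The beta chains were highest in different classes. Lamb1 (ENSMUSG00000002900, chr12:31265234-31329644, plus strand) encodes the beta chain of most early laminins and Lamb2 (ENSMUSG00000052911, chr9:108479736-108490530, plus strand) the one of synaptic, glomerular and many vascular laminins. Lamb1 was highest in Schwann-like cells, at 259.8 CPM (227 to 296) in SMA and 249 CPM (227 to 272) in Con. Fibroblast-like cells had 124 CPM (97.1 to 156) in SMA and 143 CPM (129.6 to 158) in Con, mural-like cells 122 CPM (94.5 to 155) in SMA and 150.2 CPM (133 to 169) in Con, and endothelial-like cells 48.99 CPM (40.6 to 58.6) in SMA and 61.4 CPM (53.6 to 70.1) in Con. Schwann-like cells stood above every other class without overlap in both libraries, and endothelial-like cells lay below mural- and fibroblast-like cells. Outside these classes Lamb1 was low, with 0.643 and 0.599 CPM in astrocyte-like cells. The highest of the other classes compared was oligodendrocyte-like in Con, with 11 UMIs or 7.29 CPM (3.64 to 13.1), beside 1 UMI in SMA. The part of free RNA in that value was not tested.

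Lamb2 was spread over neural cells as well. Ependymal-like cells, which line the central canal, had 69.6 CPM (59.7 to 80.8) in SMA and 89.1 CPM (71.9 to 109) in Con. Mural-like cells had 70.9 CPM (50.4 to 96.98) in SMA and 80.8 CPM (68.1 to 95.1) in Con and fibroblast-like cells 72.98 CPM (52.8 to 98.3) in SMA and 58.4 CPM (49.8 to 68.1) in Con. The intervals of these 3 classes overlapped in SMA, whereas in Con ependymal-like cells stood above fibroblast-like cells. Astrocyte-like cells had 27.5 CPM (23.9 to 31.4) in SMA and 32.4 CPM (29.01 to 36.2) in Con and microglia-like cells 10.6 CPM (8.44 to 13.1) in SMA and 11.9 CPM (9.38 to 14.9) in Con, against 0.503 and 1.37 CPM in erythroid-like cells. Of the Lamb2 UMIs in named cells, 28.7% in SMA and 31.1% in Con were in astrocyte-like cells. A cluster that stayed unnamed, of 246 SMA and 137 Con cells with 9 of 10 ependymal markers detected, had 77.3 and 71.7 CPM of Lamb2, which is in the range of ependymal-like cells.

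Of the gamma chains, Lamc1 (ENSMUSG00000026478, chr1:153218922-153332786, minus strand) is part of most laminin trimers and carries the nidogen binding site. It had 151 CPM (120.3 to 187) in SMA and 138 CPM (122 to 157) in Con in mural-like cells. Schwann-like cells had 164 CPM (138 to 192) in SMA and 98.2 CPM (84.8 to 113) in Con, fibroblast-like cells 100.1 CPM (76.2 to 129) in SMA and 117 CPM (105 to 131) in Con, and endothelial-like cells 75.1 CPM (64.7 to 86.8) in SMA and 62.5 CPM (54.6 to 71.3) in Con. Mural- and Schwann-like cells overlapped in SMA, whereas in Con mural-like cells stood above Schwann-like cells. Endothelial-like cells were the lowest of the 4 in both libraries, with an overlap with fibroblast-like cells in SMA. Lamc1 was also the member with the highest level in the oligodendrocyte lineage before maturity, with 18.3 CPM (15.9 to 20.99) in SMA and 16.5 CPM (14.1 to 19.3) in Con in OPC-like cells and 19.4 CPM (14.6 to 25.2) in SMA and 25.95 CPM (22.4 to 29.96) in Con in committed precursors (COP-like cells).

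Lamc3 (ENSMUSG00000026840, chr2:31887291-31946539, plus strand), a gamma chain of nerve, retina and cortical surface laminins, was the member most restricted to the vessel-wall classes, fibroblast-like cells among them. Fibroblast-like cells had 79.8 CPM (58.6 to 106) in SMA and 41.2 CPM (34.01 to 49.4) in Con and mural-like cells 67.3 CPM (47.4 to 92.8) in SMA and 61.6 CPM (50.5 to 74.3) in Con. Together with endothelial-like cells they held 94.3% of its UMIs in named SMA cells and 97.5% in named Con cells. Endothelial-like cells themselves had 16 UMIs in SMA and 6 in Con (6.53 and 1.67 CPM). Schwann-like cells, which carried Lama2, Lama4, Lamb1, Lamc1 and both nidogens, had 0 Lamc3 UMIs in both libraries, which allows up to 3.36 CPM in SMA and 1.53 CPM in Con at 3 counts.

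Nidogen-1, encoded by Nid1 (ENSMUSG00000005397, chr13:13437551-13512269, plus strand), links laminin to collagen IV and was the most abundant member, with 1321 UMIs in kept SMA cells and 2568 in Con. Mural-like cells had 229 CPM (191 to 273) in SMA and 201 CPM (181 to 223) in Con, and fibroblast-like cells 197 CPM (163 to 236) in SMA and 315 CPM (294 to 336) in Con. Endothelial-like cells had 149 CPM (135 to 166) in SMA and 118 CPM (107 to 130.2) in Con, and Schwann-like cells 138 CPM (114 to 164) in SMA and 115 CPM (101 to 131) in Con. The highest class was mural-like in SMA, where it overlapped with fibroblast-like cells, and fibroblast-like in Con, where it did not overlap with mural-like cells. Astrocyte-like cells had 56.2 CPM (51.02 to 61.7) in SMA and 51.3 CPM (46.96 to 55.9) in Con and held 34.3% and 20.3% of the Nid1 UMIs of named cells.

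Nid2 (ENSMUSG00000021806, chr14:19751265-19811787, plus strand), its paralog with a narrower distribution in vessels, peaked in fibroblast-like cells at 255 CPM (215 to 299) in SMA and 158 CPM (143 to 173) in Con. Endothelial-like cells had 93.1 CPM (81.4 to 106) in SMA and 98.7 CPM (88.7 to 109.5) in Con and Schwann-like cells 58.2 CPM (43.5 to 76.4) in SMA and 73.7 CPM (62.2 to 86.8) in Con. Fibroblast-like cells stood above endothelial-like cells without overlap in both libraries. Unlike Nid1, Nid2 was low in mural- and astrocyte-like cells, at 20.01 CPM (9.99 to 35.8) in SMA and 32.2 CPM (24.4 to 41.7) in Con in the former and 2.31 and 3.09 CPM in the latter. Microglia-like cells carried 17.2 CPM (14.5 to 20.4) in SMA and 15.6 CPM (12.7 to 18.9) in Con, and the small class of macrophage-like cells (38 SMA, 66 Con) 57.7 CPM (35.7 to 88.2) in SMA and 44.6 CPM (29.9 to 64.05) in Con. Both lay above the erythroid-like 0.251 and 0.42 CPM. Nid2 overlaps Rtraf on the opposite strand, and Lama2, Lamc1, Lamc3 and Nid1 overlap other gene models there. How the authors' counting treated strand is not given in the sources used here, so reads of these partners cannot be told apart.

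The share of each gene within its chain type differed between the classes. In endothelial-like cells Lama4 made up 77.6% (72.6 to 82.02) of alpha chain UMIs in SMA and 77.9% (73.9 to 81.6) in Con. Schwann-like cells divided their alpha chain UMIs between Lama2, with 51.6% (45.2 to 58.1) in SMA and 49.8% (44.8 to 54.7) in Con, and Lama4, with 46.7% and 48.3%. In astrocyte-like cells Lama1 was the leading alpha chain with 50% (41.6 to 58.4) and 46.4% (39.6 to 53.2). The alpha chains thus differed by class while the 2 libraries overlapped in each of these 3 classes. For the beta chains, Lamb1 was 90.98% (86.8 to 94.2) of the total in SMA and 96.6% (94.7 to 98.03) in Con in Schwann-like cells, whereas Lamb2 was 97.7% (94.8 to 99.3) and 98.2% (96.1 to 99.3) in astrocyte-like cells. Endothelial-like cells held both, with Lamb1 at 47.1% (40.8 to 53.4) in SMA and 57.7% (52.6 to 62.7) in Con. Lamc3 was 30.8% (22.7 to 39.9) and 30.8% (26.02 to 35.9) of gamma chain UMIs in mural-like cells, a class in which the shares were nearly equal between libraries. Nid2 was 38.4% (34.5 to 42.4) and 45.5% (41.9 to 49.02) of nidogen UMIs in endothelial-like cells but 8.03% (4.08 to 13.9) and 13.8% (10.6 to 17.5) in mural-like cells. In fibroblast-like cells the shares differed between libraries that drew on different clusters, with 433 of 601 Con cells but 2 of 63 SMA cells in cluster 15. Lama2 led the alpha chains in SMA with 49.5% (39.8 to 59.3), and Lama4 led in Con with 39.8% (35.8 to 43.9), the shares in the other library being 31.4% (27.6 to 35.3) for Lama2 and 22.02% (14.6 to 30.97) for Lama4. Nid2 made up 56.4% (50.2 to 62.4) of their nidogen UMIs in SMA and 33.4% (30.8 to 35.98) in Con, and Lamc3 44.3% (34.7 to 54.3) and 25.96% (21.9 to 30.3) of their gamma chain UMIs. In the other cluster alone, cluster 22, the intervals overlapped for Lama4, with 22.2% (14.8 to 31.2) in SMA and 20.1% (16.2 to 24.5) in Con, for Lamc3, with 44.8% (35.05 to 54.8) and 38.3% (32.8 to 44.1), and for Nid2, with 56.6% (50.4 to 62.7) and 48.4% (44.96 to 51.8). There Lama2 led in SMA with 49.1% (39.3 to 58.9) and Lama1 in Con with 43.9% (38.8 to 49.1). Intervals did not overlap for Lama1, which had 27.8% (19.6 to 37.2) in SMA. Nor did they for Lamb1, with 66.4% (56.7 to 75.1) of beta chain UMIs in SMA and 79.8% (75.3 to 83.8) in Con.

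**Figure D2:**
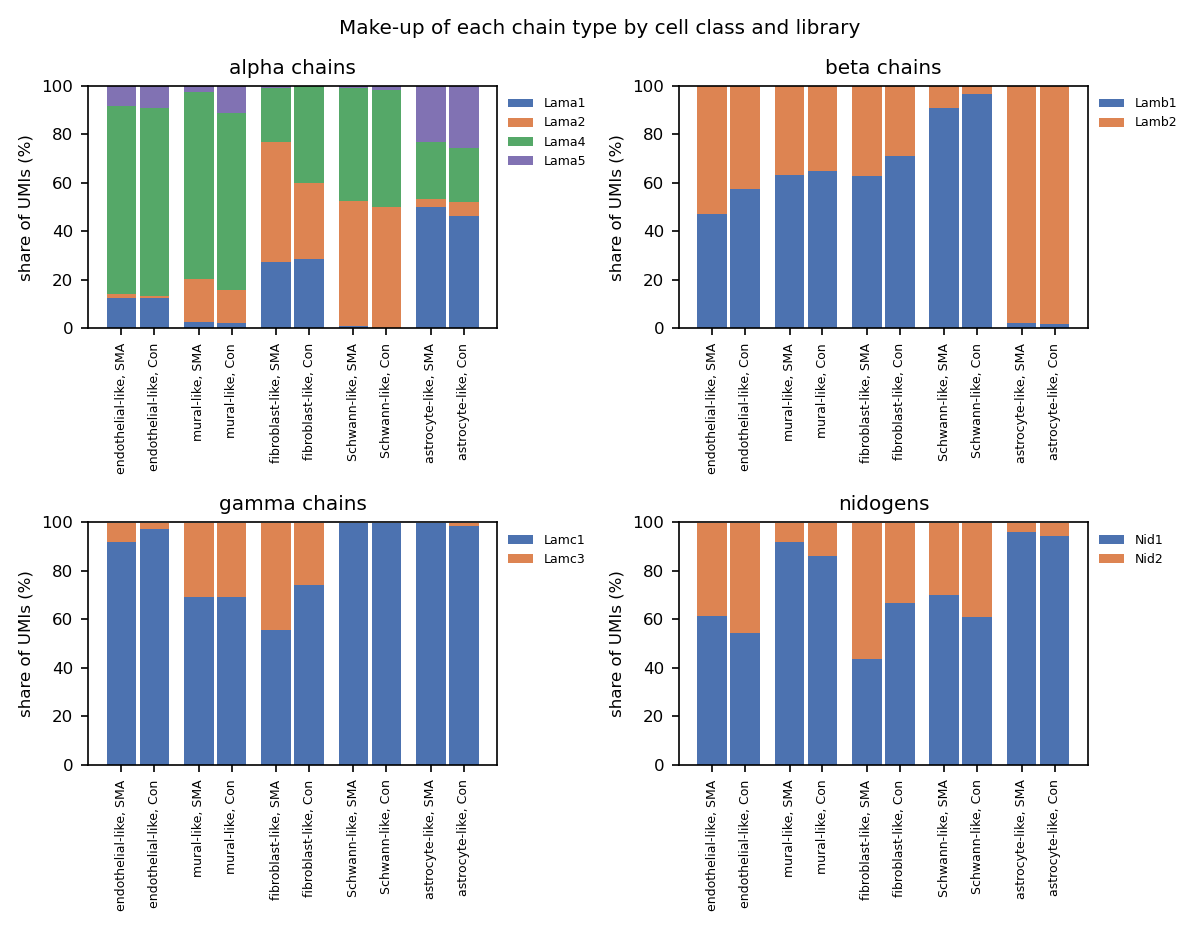
Share of each gene (stacked bars, %) in the UMIs of the alpha chains, beta chains, gamma chains and nidogens, in 5 cell classes of each library. Lama4 fills most of the alpha bar in endothelial- and mural-like cells, Lamb1 most of the beta bar in Schwann-like cells and Lamb2 nearly all of it in astrocyte-like cells, and the fibroblast-like bars differ between libraries whose cells fall into different clusters (2 SMA and 433 Con cells in cluster 15).

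Detection was counted by cells as well. Nid1 had at least 1 UMI in 72.5% of mural-like cells in SMA and 70.2% in Con, and Lamb1 in 84.8% and 81.02% of Schwann-like cells. Lama4 was found in 44.9% and 44.3% of endothelial-like cells. In erythroid-like cells, at median depths of 9730 and 9828 UMIs, the shares were 1.19% and 2.11% for Nid1, 0.239% and 0.502% for Lamb1 and 0.239% and 0.703% for Lama4. The median depths were 5769 and 6533.5 UMIs in mural-like, 9407.5 and 8671 in Schwann-like and 6945 and 7924.5 in endothelial-like cells. Thinned to 1000 UMIs per cell, which left out 1 mural-like and 1 Schwann-like Con cell and no other cell of these 3 classes, Nid1 was found in 23.1% and 24.5% of mural-like cells. The thinned shares were 17.4% and 20.9% for Lamb1 in Schwann-like cells and 10.2% and 7.34% for Lama4 in endothelial-like cells. Astrocyte-like cells had Nid1 in 25.8% and 23.2% of cells, and in 5.08% and 4.30% after thinning, above the thinned erythroid-like shares of 0% and 0.101%. The astrocyte-like median depths were 5889 and 6046.5 UMIs and no such cell was left out, while 2 SMA and 3 Con erythroid-like cells were. A share of cells with a UMI is no count of cells expressing a gene, since most cells hold few UMIs of any member.

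Across classes, 4 members had similar patterns of level. Lama4, Lamb1, Lamc1 and Nid1, 1 chain of each type with a nidogen, had Pearson's r of 0.89 to 0.95 in their 6 pairs, against a median of 0.63 over all 45 pairs of members. The values were log2(CPM + 10) over 24 points, each a class with at least 50 cells in 1 library, and points of 1 library share their depth and preparation. These correlations are a description, and the group was chosen after they were seen. Lama5, Lama1 and Lamb2 followed the group less, with r of 0.43, 0.46 and 0.53 to Lamb1. Among all genes with at least 500 UMIs, the nearest to Lama4 were Phldb2 (r 0.98), Lamc1 and Lamb1, and the nearest to Lamb1 were Lama4, Lamc1 and Hspg2, the gene of perlecan (r 0.94). Lamc1 was nearest to Lama4, Akap12 and Lamb1. Lama2 was nearest to Ogn, Gypc and Col3a1 (r 0.95 to 0.98), Lamc3 to Slc6a20a, Zic4 and Mgp (0.96 to 0.98) and Nid1 to Ppic, Fkbp10 and Eva1b (0.93 to 0.98). For the rest, Lama1 was nearest to Ghr, Fbln1 and Wnt5a, Lama5 to Net1, Bcam and Myl4, Lamb2 to Pard3b, Tm4sf1 and Trip6, and Nid2 to Vamp5 and Rcn3, with r from 0.85 to 0.93. Lama1, Lama2, Lama5 and Lamc3 had 260 to 677 UMIs over these points, fewer than the other members, so their order of classes is less exact.

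The bases before the start of 4 members are shown because 2 of them, Lamb1 and Nid1, had similar class patterns and the other 2, Lamb2 and Lama5, followed them less. The sequences are RefSeq's for GRCm38.p6, in which 5 of the 10 members were matched. From the 250 bases before each RefSeq start, only those lying before the GENCODE gene as well are printed, 5′ to 3′ along the gene, and the positions are chr12:31265043-31265233, plus strand, for Lamb1, chr13:13437352-13437550, plus strand, for Nid1, chr9:108479612-108479735, plus strand, for Lamb2 and chr2:180225860-180226109, minus strand, for Lama5. Capitals mark the GC box, searched as GGGCGG on both strands and so also as CCGCCC.
Lamb1: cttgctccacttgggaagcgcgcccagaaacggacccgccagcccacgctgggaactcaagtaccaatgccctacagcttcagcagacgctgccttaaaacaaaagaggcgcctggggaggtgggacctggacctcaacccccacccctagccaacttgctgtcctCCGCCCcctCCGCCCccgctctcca
Nid1: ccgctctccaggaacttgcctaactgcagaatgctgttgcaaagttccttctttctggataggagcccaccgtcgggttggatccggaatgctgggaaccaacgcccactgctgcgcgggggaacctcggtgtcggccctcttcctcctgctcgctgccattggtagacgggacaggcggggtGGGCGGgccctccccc
Lamb2: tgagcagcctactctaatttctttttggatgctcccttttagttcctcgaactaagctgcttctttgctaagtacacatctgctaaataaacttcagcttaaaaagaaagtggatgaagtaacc
Lama5: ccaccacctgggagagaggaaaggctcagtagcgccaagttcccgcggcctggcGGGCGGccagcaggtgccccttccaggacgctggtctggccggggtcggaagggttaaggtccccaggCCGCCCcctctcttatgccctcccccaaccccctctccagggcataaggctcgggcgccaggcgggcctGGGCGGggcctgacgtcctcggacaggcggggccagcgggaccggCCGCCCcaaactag
Over the full 250 bases, the GC box occurred 2 times at Lamb1, 1 time at Nid1, 4 times at Lama5 and not at Lamb2 or at Lama2, the fifth member matched. Of 32841 windows of the same length before RefSeq starts, 32.7% held it. CG dinucleotides numbered 14 at Lamb1, 16 at Nid1, 19 at Lama5, 3 at Lamb2 and 0 at Lama2, against a median of 6 over all windows. The Lama2 window lay wholly inside its GENCODE gene, so its counts are not of bases before that gene. Of the 250 bases at Lamb2, 124 lay before the GENCODE gene. The letters thus did not divide the members as the class patterns did, since Lama5 held the most of both. These matches are a description of the reference sequence and say nothing about binding.

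The comparison of SMA with Con asked whether these genes differ within a cell class when Smn is lost. Of 110 pairs of a member and a class, 48 had at least 50 UMIs over both libraries and were compared, which covers all 10 members. At a ratio of 1.5-fold or more, 4 pairs were higher in SMA and 4 were lower, that is, 8.33% in each direction. Over all genes in the same 11 classes, 5.76% of 86448 gene and class pairs were higher and 6.41% lower, so the members were close to this background. The interval excluded a ratio of 1 in 8 pairs, 6 of them higher and 2 lower in SMA, and in no pair did it lie wholly past 1.5-fold.

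In endothelial-like cells, the best counted vessel class, 8 members were compared and none reached 1.5-fold, against 6.09% of 8286 genes higher and 6.37% lower. Their median log2 ratio was -0.00555, beside 0.00474 over all genes. Nid1 had 366 UMIs in SMA and 426 in Con, and its log2 ratio of 0.34 (0.13 to 0.54) lay above 0. Lama4, the leading alpha chain there, had a log2 ratio of -0.01 (-0.24 to 0.23) and Nid2 of -0.08 (-0.33 to 0.16), both with intervals inside 1.5-fold. Lamb1 and Lamb2 lay on opposite sides, at -0.33 (-0.66 to 0.00) and 0.29 (-0.05 to 0.63), with intervals that included 0. Lamc3, under the minimum of 50 UMIs, had 16 UMIs in SMA and 6 in Con, a log2 ratio of 1.97 (0.54 to 3.61).

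In mural-like cells 8 members were compared and 1 reached 1.5-fold, Nid2, which was lower, against 6.92% of 5575 genes higher and 10% lower. Nid2 rested on 11 UMIs in SMA and 57 in Con, with a log2 ratio of -0.69 (-1.77 to 0.26) that included 0, and it turned to 0.28 with a mitochondrial limit of 20%. Lama5, under the minimum of 50 UMIs, had 3 UMIs in SMA and 39 in Con, which are 5.46 CPM (1.13 to 15.9) and 22.02 CPM (15.7 to 30.1). The make-up of the class differed between the libraries as well. Acta2, the smooth muscle actin, had 2163 CPM (2042 to 2289) in SMA and 5176 CPM (5071 to 5283) in Con, and Tagln, another smooth muscle gene, 1281 CPM (1188 to 1379) in SMA and 2478 CPM (2405 to 2552) in Con. Rgs5, a pericyte gene, had 7305 CPM (7081 to 7535) in SMA and 4744 CPM (4643 to 4847) in Con. The smooth muscle genes were thus lower and the pericyte gene higher in SMA, and the part of this difference in the values of Nid2 and Lama5 was not tested. The other 7 members compared had log2 ratios from -0.30 to 0.42, all with intervals that included 0.

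In Schwann-like cells 6 members were compared and Lamc1 alone reached 1.5-fold, against 7.82% of 5586 genes higher and 7.84% lower. Lamc1 had 146 UMIs in SMA and 193 in Con, with levels that did not overlap and a log2 ratio of 0.74 (0.42 to 1.05). It was 0.47 to 0.86 under the 7 other settings that bear on these cells, the lowest, under 1.5-fold, being that with the shared barcodes kept. Lama2 had a log2 ratio of 0.44 (0.11 to 0.77), above 0 but under 1.5-fold. Lamb1, the most abundant chain of these cells, was nearly level at 0.06 (-0.17 to 0.29). Lamb2, with 23 and 17 UMIs and so not compared, had 25.8 CPM (16.3 to 38.7) in SMA and 8.65 CPM (5.04 to 13.8) in Con.

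Among the neural classes 2 pairs reached 1.5-fold. In OPC-like cells, where 2.64% of 11997 genes were higher and 2.24% lower, Lama1 had 22 UMIs in SMA and 33 in Con and a ratio of -0.77 (-1.62 to 0.05) on the log2 scale. In ependymal-like cells, where 4.54% of 7384 genes were higher and 4.81% lower, Lamc1 had 49 and 12 UMIs, at 0.76 (-0.17 to 1.81) on the log2 scale, which came to 0.13 with a mitochondrial limit of 20%. Both intervals included 0, so at this depth neither ratio was distinguishable from 1. In astrocyte-like cells (2.31% of 11392 genes higher, 4.35% lower) none of 6 members reached 1.5-fold, and Nid1, with 437 and 514 UMIs, had a log2 ratio of 0.13 (-0.06 to 0.32), which bounds a difference in either direction to under 1.5-fold by counting error. None of the 3 members compared in microglia-like cells (5.32% of 10188 genes higher, 2.31% lower) or of the 2 in COP-like cells (5.65% of 9801 higher, 2.69% lower) reached it. No member had 50 UMIs in erythroid-like cells (3.66% of 4016 genes higher, 13.9% lower) or oligodendrocyte-like cells (8.53% of 5813 higher, 6.28% lower).

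**Figure D3:**
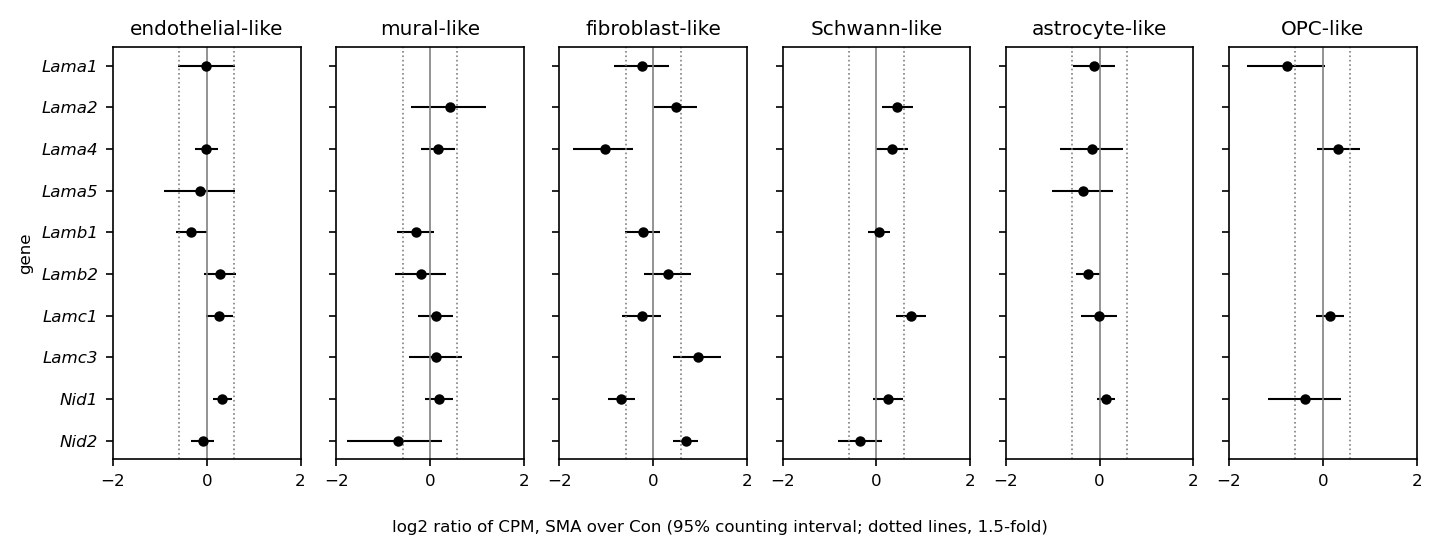
Log2 ratio of CPM in SMA over Con (points) with its 95% counting interval (lines) for each member with at least 50 UMIs, in 6 cell classes, where dotted lines mark 1.5-fold. The endothelial- and astrocyte-like points stay inside the dotted lines, and the fibroblast-like points spread on both sides, from -1.03 for Lama4 to 0.95 for Lamc3.

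The widest spread was in fibroblast-like cells, where 9 members were compared, 2 were at least 1.5-fold higher in SMA and 2 lower, against 15.6% of 6410 genes higher and 23% lower. Nid2 and Lamc3 were higher, with log2 ratios of 0.69 (0.41 to 0.96) and 0.95 (0.43 to 1.45). Lama4 and Nid1 were lower, with -1.03 (-1.70 to -0.42) and -0.68 (-0.97 to -0.40). All 4 intervals excluded 0. That of Lama2 did so too, with a log2 ratio of 0.48 (0.02 to 0.93) that was under 1.5-fold. With each cell weighted equally the ratios came to 1.35 for Nid2 and 1.86 for Lamc3. Marker genes differed between the libraries in this class too, 3 of its 10 markers being 1.5-fold or more higher in SMA and 6 lower, with a summed level of 10967 CPM in SMA and 26276 CPM in Con. Col3a1, a fibrillar collagen, had 1621 CPM (1520 to 1727) in SMA and 6932 CPM (6835 to 7030) in Con, and Aldh1a2, an enzyme of retinoic acid synthesis, 359.8 CPM (313 to 412) in SMA and 40.5 CPM (33.4 to 48.7) in Con. The smooth muscle genes Acta2 and Tagln had 10.2 CPM (3.74 to 22.2) and 30.5 CPM (18.1 to 48.3) in SMA, against 968 CPM (932 to 1005) and 669 CPM (639 to 701) in Con. The part of these differences in the ratios of the members was not tested. The class was made of 2 clusters in unequal parts: cluster 22 held 61 SMA and 168 Con cells, and cluster 15 held 2 SMA and 433 Con cells. Cluster 22 was led by Slc6a13, Mfap4, A2m, Igf2 and Penk, and cluster 15 by Mfap5, Timp1, Pi16, Igfbp6 and C3.

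The 2 clusters carried different laminins within the library labelled Con itself. Lama1 had 116 CPM (98.8 to 135) in cluster 22 and 0.736 CPM (0.0186 to 4.10), that is, 1 UMI, in cluster 15, a log2 ratio of cluster 15 over cluster 22 of -7.30 (-12.61 to -4.80). Lamc3 had 80.2 CPM (66.2 to 96.3) in cluster 22 and 0 of 1357828 UMIs in cluster 15, which at 3 counts is at least 36.3-fold lower. Nid2 had 288 CPM (261 to 317) and 19.9 CPM (13.1 to 28.9), which is -3.86 (-4.48 to -3.29) on the log2 scale. Lama1, Lamc3 and Nid2 were thus genes of cluster 22. Lama2 and Lamb1 were also lower in cluster 15, with log2 ratios of -1.41 (-1.92 to -0.93) and -1.30 (-1.63 to -0.98). Lama4 went the other way, with 53.00 CPM (41.8 to 66.3) and 115 CPM (97.6 to 134), that is, 1.12 (0.71 to 1.53) on the log2 scale. Nid1, Lamc1 and Lamb2 had intervals that included 0, with 0.07 (-0.13 to 0.26), -0.29 (-0.62 to 0.03) and 0.38 (-0.08 to 0.85). Among 5700 genes, 23.6% were 1.5-fold or more higher in cluster 15 and 27.3% lower, so differences of 1.5-fold were common between the clusters. The share of genes that differed as much as Lama1, Lamc3 or Nid2 was not counted, and both clusters rest on 1 library here.

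The clusters also differed in quality. Con cells of cluster 15 had a median of 2804 UMIs and 2.08% mitochondrial UMIs, against 8444 UMIs and 6.27% in cluster 22. Of the Con cells in cluster 22, 156 of 168 (92.9%) had a barcode that the SMA library also listed, against 5 of 433 (1.15%) in cluster 15. Among Con cells of at least 5000 UMIs the counts were 2 of 70 in cluster 15, 150 of 150 in cluster 22 and 4930 of 4933 in all non-erythroid clusters but cluster 15. Cluster 15 thus stood apart from the other non-erythroid Con cells of that depth in this measure, and its part in the class ratios was examined by leaving the cluster out.

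Within cluster 22 alone, 9 members were compared, 0 were 1.5-fold or more higher in SMA and 3 lower, against 10.4% of 4551 genes higher and 16.2% lower. Their median log2 ratio was -0.34, beside -0.02 over all genes. Nid2 and Lamc3 were no longer higher, at -0.14 (-0.42 to 0.13) and 0.03 (-0.49 to 0.53), and Lama4 came to -0.34 (-1.07 to 0.33). Lama1 had 52.2 CPM (35.2 to 74.5) in SMA and 116 CPM (98.8 to 135) in Con, levels that did not overlap, with a log2 ratio of -1.15 (-1.76 to -0.58). Nid1 and Lamb1 were lower as well, with -0.62 (-0.93 to -0.32) and -0.67 (-1.06 to -0.29). Of the 4 class ratios past 1.5-fold, only that of Nid1 was past it in cluster 22 too. The markers differed within cluster 22 as well, 3 of 10 being 1.5-fold or more higher in SMA and 6 lower. Lum, a small proteoglycan, had 122 CPM (94.97 to 154) in SMA and 999 CPM (948 to 1053) in Con, and Aldh1a2 369 CPM (321 to 422) and 78.8 CPM (64.9 to 94.7), and their part in the values of Lama1, Nid1 and Lamb1 was not tested. This division was chosen after the data were seen and rests on 61 SMA cells.

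Cluster 22 was itself uneven. When the fibroblast-like cells were divided more finely, 1 of 8 sub-clusters held 16 SMA cells and 1 Con cell, and 14 of these SMA cells and the Con cell belonged to cluster 22. In its SMA cells Nid1 had 60.6 CPM (29.04 to 111) and Lamb1 12.1 CPM (1.47 to 43.7), and Lama1 had 0 UMIs. The 2 sub-clusters with at least 5 cells of each library kept 44 SMA and 103 Con cells, in which 8 members were compared, 1 was 1.5-fold or more higher in SMA and 1 lower, against 10.3% of 3224 genes higher and 13.8% lower. There Nid1 came to -0.20 (-0.55 to 0.13), Lamb1 to 0.05 (-0.38 to 0.48), Nid2 to 0.04 (-0.29 to 0.35) and Lamc3 to 0.41 (-0.17 to 0.98), all under 1.5-fold with intervals that included 0. Lama4 had under 50 UMIs. Of the 4 class ratios past 1.5-fold, the 3 that could be compared in these cells were thus not past it. Lama1 was still lower in SMA, with -0.71 (-1.37 to -0.09), and Lama2 was higher, with 0.72 (0.12 to 1.31). In cluster 22 as a whole Lama2 had -0.03 (-0.52 to 0.44).

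**Figure D4:**
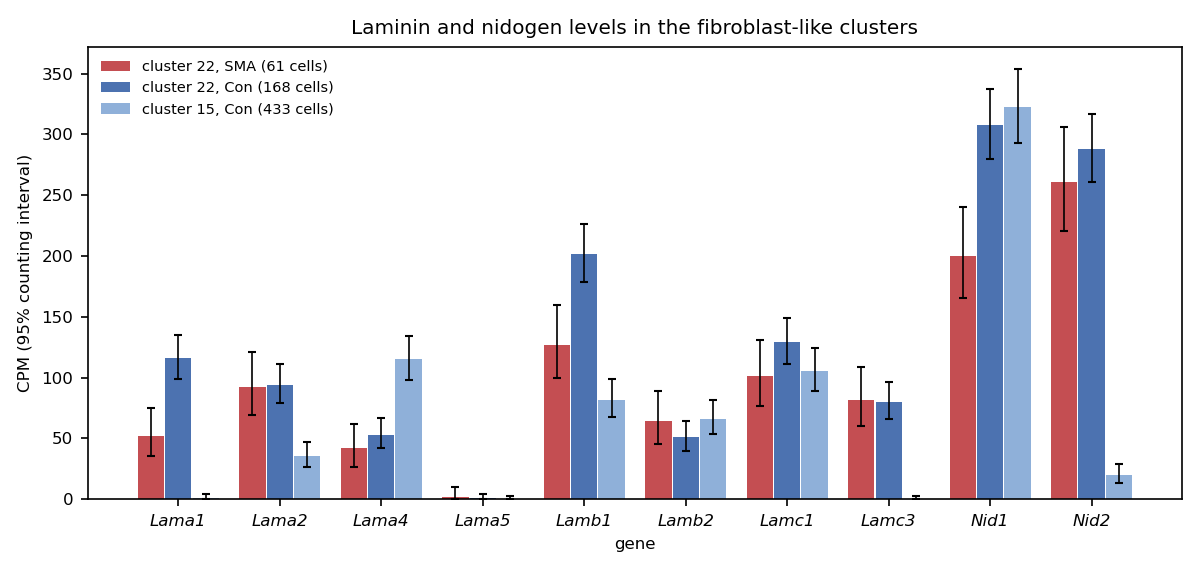
Level of each member (bars, CPM) with its 95% counting interval in fibroblast-like cluster 22 of each library and cluster 15 of the library labelled Con. Lama1, Lamc3 and Nid2 have tall bars in cluster 22 and nearly none in cluster 15, Lama4 is tallest in cluster 15, and Nid1 is high in all 3 bars. The 2 SMA cells of cluster 15 are not shown.

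Other genes of the basement membrane were set beside the laminins. Lama3, an alpha chain gene of epithelial laminin that is not a member, was highest in ependymal-like cells, at 23.1 CPM (17.5 to 29.8) in SMA and 16.3 CPM (9.48 to 26.1) in Con. Of 8 collagen genes, 6 had enough UMIs to rank in each library, and 5 in SMA and 6 in Con were highest in a vessel-wall class. Col4a1, the gene of a collagen IV chain to which nidogen binds, had 1110 CPM (1023 to 1201) in SMA and 1015 CPM (969 to 1063) in Con in mural-like cells and was the highest of this list. Over all classes 1 of 25 collagen pairs was 1.5-fold or more higher in SMA and 2 lower (4% and 8%, against 5.76% and 6.41% of all pairs). The higher one was Col15a1, which anchors basement membranes to the tissue around them, with a log2 ratio of 1.22 (0.64 to 1.81) in Schwann-like cells, and it was lower in fibroblast-like cells with -1.71 (-2.35 to -1.14).

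Among 14 genes of basement membrane proteoglycans and linkers, 64 pairs were compared, 3 were 1.5-fold or more higher in SMA and 17 (26.6%) lower, against 5.76% and 6.41% of all pairs. Sparc, a collagen-binding glycoprotein, was the most abundant, with 6064 CPM (5867 to 6266) in SMA and 14496 CPM (14355 to 14638) in Con in fibroblast-like cells, and a log2 ratio of -1.26 (-1.31 to -1.21) there. Fbln2, a ligand of laminins and nidogens, had log2 ratios of -2.63 (-3.03 to -2.25) in fibroblast-like and -1.24 (-1.70 to -0.79) in astrocyte-like cells. The fibroblast-like values rest on the same 2 clusters, whose shares differ between the libraries. That class held 4 of the 17 lower pairs, out of 7 compared there, against 23% of all genes. Lower pairs were also 3 of 9 in endothelial-, 3 of 10 in astrocyte-, 2 of 8 in OPC- and 2 of 5 in Schwann-like cells. The shares of all genes lower in these classes were 6.37%, 4.35%, 2.24% and 7.84%. Tinagl1, a matricellular protein, had 65.5 CPM (45.9 to 90.7) in SMA and 261 CPM (238 to 286) in Con among mural-like cells, or -1.99 (-2.53 to -1.50) on the log2 scale. It moved in the direction of Acta2 and Tagln, and the part of the class make-up in it was not tested.

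Of 8 laminin receptor genes ranked in each library, 3 in SMA and 4 in Con were highest in a vessel-wall class, beside 21.6% and 22.1% of all genes tested. Itgb1, the common beta subunit of laminin-binding integrins, had 424 CPM (371 to 482) in SMA and 379 CPM (351 to 409) in Con in mural-like cells. Itga6 and Dag1, the genes of an integrin alpha subunit and of dystroglycan, were high in Schwann-like cells, the class with most Lama2 and Lamb1, at 354 CPM (316 to 395) in SMA and 273 CPM (251 to 297) in Con for Itga6 and 264 CPM (232 to 300.3) in SMA and 316 CPM (292 to 342) in Con for Dag1. No receptor pair of 41 was 1.5-fold or more higher in SMA and 4 (9.76%) were lower, against 5.76% and 6.41% of all pairs. The interval of 1 lay wholly past that fold, that of Bcam, the Lutheran receptor of laminin alpha-5, in mural-like cells, with 72.8 CPM (51.98 to 99.1) in SMA and 229 CPM (208 to 253) in Con, which is -1.66 (-2.16 to -1.19) on the log2 scale. Bcam was lower in the same cells in which Lama5 had 3 and 39 UMIs and in which the smooth muscle genes were lower. Of the 14 partners and glycosyltransferases of dystroglycan, such as Utrn with 189 CPM (162 to 220.1) in SMA and 219 CPM (199 to 240.4) in Con in Schwann-like cells, 3 in SMA and 2 in Con were highest in a vessel-wall class. For these, 3 of 92 pairs (3.26%) were 1.5-fold or more higher in SMA and 9 (9.78%) lower, beside the same shares of all pairs.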

How the data were processed

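Single cells of whole mouse spinal cord were measured in 1 library labelled SMA and 1 labelled Con, and groups were taken from the sample labels. The deposited values are raw UMI counts for each gene in each barcode. The authors made them with Cell Ranger, out of 3′ libraries of 10x Genomics. The version is 4.0.0 per the file headers, which is not the one in the study's methods, and the build is mm10 per the submitters' processing notes. Barcodes had been filtered before deposit.

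SMA barcodes also listed in Con were left out, then barcodes under 200 or over 4000 genes or with a mitochondrial share of 10% or more, after the study's methods, and then a cluster of 1338 Con barcodes with a median ribosomal-protein share over 30%. No step against doublets was taken other than the limit of 4000 genes. Each cell was scaled to 10000 UMIs on a log scale, 2000 variable genes were reduced to 30 principal components, and the shared-neighbour graph of 20 neighbours was divided with the Louvain method at resolution 1 (python-igraph 0.11.9, numpy 2.4.6, scipy 1.17.1, pandas 2.3.3, Python 3.11.15). Listed, mitochondrial, ribosomal and sex-linked genes were kept out of clustering and naming. A cluster took the class, out of 18 with 10 markers each, with most markers among its 60 leading genes or, where these held none, with most markers detected, and stayed unnamed with under 3 markers detected, with more markers of another class among 10 leading genes, or with another class close to it. The last rule was set after the data were seen.

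UMIs were summed per class and library. Intervals at the 95% level are exact Poisson for levels, Clopper-Pearson for shares and conditional binomial for ratios. The interval method was tested on simulated data. Where no UMI was found, 3 counts were taken as the limit. Ratios were taken in classes with at least 50 cells per library and for genes with at least 50 UMIs, and called at 1.5-fold. With 1 library per group no test between groups was run. UMIs of different animals in a pool cannot be told apart. The members and lists were chosen with earlier results of these data known. All members are named, together with listed genes whose interval lay wholly past 1.5-fold (at most 3 per class), the listed gene of highest level in the classes where the members are highest, and the 3 genes nearest to each member. A few results under this rule are not reported here. Positions are from GENCODE M21 on GRCm38, which matched 32235 of 32285 identifiers, and sequences from RefSeq on GRCm38.p6. Alternatives changed the barcodes kept, the depth, the mitochondrial and gene limits, the resolution, the weight of a cell, the scaling, the minimum of UMIs and the fibroblast-like cells used.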

Additional observations from a re-analysis of the deposited data

Results flagged for a closer look

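Nid1 moved in opposite directions in 2 cell classes of the same 2 libraries. Its log2 ratio of SMA over Con was 0.34 in endothelial-like cells and -0.68 in fibroblast-like cells, and the counting interval of each excluded 0. The difference between the classes was not tested, since each group was 1 library. In fibroblast-like cluster 22 alone the ratio was -0.62 (-0.93 to -0.32). In the fibroblast-like sub-clusters with at least 5 cells of each library it was -0.20 (-0.55 to 0.13), under 1.5-fold and with an interval that included 0, so the opposite directions were not distinguishable there.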

How the results depend on the processing

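No paired analysis was possible because each group was 1 library and the labels give no shared replicate numbers. The 48 pairs compared gave 4 at least 1.5-fold higher and 4 lower in SMA. With a minimum of 20 UMIs 7 of 61 were higher and 5 lower, against 8.97% and 9.84% of all gene and class pairs. With a minimum of 200 UMIs 2 of 29 were higher and 2 lower, against 2.73% and 3.01%. With the fibroblast-like cluster 22 alone, an alternative chosen after seeing the data, 2 were higher and 5 lower, against 5.27% and 5.68%. In cells with at least 5000 UMIs 3 were higher and 2 lower, against 5.41% and 6.08%. Nid2 changed direction in mural-like cells, to 0.28 with a mitochondrial limit of 20%, and in fibroblast-like cells, to -0.14 with cluster 22 alone. The cause was not tested. With each cell weighted equally 4 ratios and 4 levels left their counting interval, and in cells with at least 5000 UMIs 3 ratios and 5 levels did. Among those moved by equal weights was Lama1 in fibroblast-like cells, which turned from -0.23 (-0.84 to 0.33) to 0.72. The members with their highest level in a vessel-wall class numbered 6 to 8 in SMA and 7 in Con under the 6 alternatives run for them, with 6 where the shared barcodes were kept and in cells with at least 5000 UMIs. Counting error limits Lama5 and Lamc3 most, and with 1 library per group no interval includes differences between animals.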
